A study of Mus musculus with 5 samples.

Results

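Cell cycle, replication and spindle checkpoint genes were followed in mouse embryonic stem cells (ESCs), called parental, and in ESC-like cells recovered from their teratomas. The list held 53 genes named for their known roles, and it was drawn up with earlier results of these data known. Of these, 52 had a probe set that carries their symbol alone, out of 19938 genes with such a probe set. Where a gene had several, the brightest by mean over the arrays was used. Ccnb1, the mitotic cyclin B1, was not analysed here.

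Expression was measured with 5 microarrays (Affymetrix Mouse Gene 1.0 ST), 1 each for parental ESCs, homologous and heterologous ESC-like cells and 2 (batch 1 and batch 2) for co-injection ESC-like cells. All cells descended from B6CBAF1 ESCs, and all cultures were grown on inactivated fetal fibroblasts of ICR mice. Homologous cells came from teratomas of B6CBAF1 recipients given ESCs alone, and heterologous cells from the only teratoma that formed in B6D2F1 recipients given ESCs alone. Co-injection cells came from B6D2F1 recipients that received the ESCs mixed with B6D2F1 fetal fibroblasts, in a ratio of 4 ESCs to 1 fibroblast. Teratomas were collected after 5 weeks under the skin, and the methods give a higher concentration of leukemia inhibitory factor for the outgrowth of teratoma cells than for ESCs. The labels give neither the age of the recipients nor the passage of the cells, and they do not say whether the 2 co-injection batches came from different teratomas. The study counted chromosomes in these cells and asked how often they departed from the normal number, which is why the genes that copy and separate chromosomes are described here.

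In each cell cycle, D-type cyclins with CDK4 or CDK6 release the E2F transcription factors from the retinoblastoma protein, and inhibitors of the INK4 and CIP/KIP families hold these kinases back. The MCM helicase, loaded onto replication origins by CDC6 and CDT1, then unwinds DNA for copying. In mitosis, the spindle assembly checkpoint keeps CDC20 from activating the anaphase-promoting complex until every kinetochore is attached, after which separase cuts the cohesin rings that hold sister chromatids together. Mouse ESCs are known for a short G1 phase with little cyclin D activity, and cells of later stages lengthen it.

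Values are log2 expression values that the authors normalized by the robust multi-array average (RMA), and a difference of 1 is 2-fold. Array medians lay between 7.48 and 7.54. Outside the co-injection pair there was 1 array per condition, so no p-value is given and the number of arrays limits the precision; SDs are those of the co-injection pair (n = 2). Those 2 arrays differed by a median of 0.035 over the 52 members and by at most 0.19 (Cdc6), against a median of 0.067 over all genes. Of the ESC markers Pou5f1, Sox2, Nanog, Zfp42, Dppa5a and Tdgf1, none was more than 2-fold from parental ESCs except Zfp42 in the heterologous array, at −1.63. The median of the 6 differences was −0.28 in the homologous array, −0.22 in the co-injection mean and −0.52 in the heterologous array. Fibroblast markers stood apart in that array, where 10 of 14 passed 2-fold over parental ESCs and the median of the 14 differences was 1.67. Their summed linear signal was 31398 there, 15068 in parental ESCs, 19099 in the homologous array and 14208 and 14533 in the co-injection arrays. Fn1 and Vim, the brightest of the 14 in parental ESCs at 12.55 and 12.65, weigh most in this sum. They differed from parental ESCs by 0.72 and 0.68 in the heterologous array. Col1a1 was at 11.21 against 8.88 in parental ESCs and Postn at 10.31 against 7.02. The 4 contractile markers passed 2-fold there too, with a summed linear signal of 13824 against 3421 in parental ESCs, 5074 in the homologous array and 2605 and 2288 in the co-injection pair. In the co-injection mean Acta2 alone was below parental ESCs, by −1.48. Tagln, Cnn1 and Myl9 were above them, by 0.19, 0.72 and 0.16. The part of these markers in the differences of cell cycle genes was not tested, and in a bulk culture fewer cells of a type cannot be told apart from less RNA per cell.

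Promoter sequences of 7 members are shown, because mitotic and replication genes are known to share CCAAT boxes, cell cycle homology region (CHR) elements and E2F sites before their start. Each is the stretch of 200 bases up to the transcription start in RefSeq for GRCm38.p6, 5′ to 3′ on the gene's strand, with motif matches in capitals, on either strand. The letters searched were CCAAT for the box of that name. They were TTTGAA for the CHR element. For an E2F site they were TTTNGCGC, where N is any base, and E2F matches may overlap each other. Pttg1, Espl1, Cenpf, Top2a and Mcm6 were lowest in the heterologous array, and Cdkn1b and Cdkn2b are the CDK inhibitors that passed 2-fold.
Pttg1, chr11:43425982-43426181, minus strand: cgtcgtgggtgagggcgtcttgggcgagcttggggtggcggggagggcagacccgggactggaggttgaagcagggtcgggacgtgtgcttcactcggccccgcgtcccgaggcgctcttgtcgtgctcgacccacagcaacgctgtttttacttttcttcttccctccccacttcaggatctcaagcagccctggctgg
Espl1, chr15:102296093-102296292, plus strand: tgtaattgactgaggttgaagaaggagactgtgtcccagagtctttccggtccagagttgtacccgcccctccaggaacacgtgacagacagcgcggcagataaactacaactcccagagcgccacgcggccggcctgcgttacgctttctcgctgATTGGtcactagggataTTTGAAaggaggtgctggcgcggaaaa
Cenpf, chr1:189688087-189688286, minus strand: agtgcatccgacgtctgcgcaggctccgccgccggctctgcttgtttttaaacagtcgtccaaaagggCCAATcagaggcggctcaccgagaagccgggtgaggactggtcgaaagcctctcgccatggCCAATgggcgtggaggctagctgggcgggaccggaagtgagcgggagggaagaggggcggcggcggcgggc
Top2a, chr11:99024190-99024389, minus strand: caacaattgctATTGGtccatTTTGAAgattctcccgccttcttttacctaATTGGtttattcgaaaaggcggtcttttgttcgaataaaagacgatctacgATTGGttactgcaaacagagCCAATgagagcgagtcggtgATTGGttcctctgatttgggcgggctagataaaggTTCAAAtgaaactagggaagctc
Mcm6, chr1:128359706-128359905, minus strand: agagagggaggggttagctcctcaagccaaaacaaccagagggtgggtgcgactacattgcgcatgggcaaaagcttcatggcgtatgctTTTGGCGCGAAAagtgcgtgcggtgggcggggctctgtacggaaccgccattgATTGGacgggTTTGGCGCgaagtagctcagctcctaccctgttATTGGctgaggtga
Cdkn1b, chr6:134920201-134920400, plus strand: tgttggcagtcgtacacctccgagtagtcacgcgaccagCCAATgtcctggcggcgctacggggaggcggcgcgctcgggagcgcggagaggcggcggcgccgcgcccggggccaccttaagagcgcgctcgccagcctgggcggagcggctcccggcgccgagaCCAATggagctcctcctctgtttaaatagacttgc
Cdkn2b, chr4:89311033-89311232, minus strand: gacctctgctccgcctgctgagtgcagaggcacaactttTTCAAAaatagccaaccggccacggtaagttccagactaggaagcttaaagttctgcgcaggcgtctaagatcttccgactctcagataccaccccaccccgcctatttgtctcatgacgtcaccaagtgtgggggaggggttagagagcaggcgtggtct

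In these stretches Top2a held 5 CCAAT boxes and 2 CHR elements, Espl1 held 1 of each, Mcm6 held 3 E2F matches, some overlapping, and 2 CCAAT boxes, and Pttg1 held no match. RefSeq promoters were at hand for 42 of the 52 members, in 47 windows counting other starts. Over the 250 bases before the start, CCAAT occurred in 66.0% of the member windows and in 33.8% of all 32851 windows, and in 70.8% of the 24 windows of mitotic members. TTTGAA occurred in 25.5% of the member windows against 16.0% of all, and in 29.2% of the mitotic ones. TTTNGCGC occurred in 8.51% against 1.13%, namely in Cdk1, Cdkn2a, Mcm5 and Mcm6, and in 0.0% of the mitotic windows. A match describes letters in these windows and is not evidence of binding.

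Most of the 52 members differed little between the populations, and those over 2-fold in any comparison were all D-type cyclins or CDK inhibitors. In the homologous array 1 member, Cdkn1b, passed 2-fold upwards against parental ESCs and none downwards, where 1.45% of all genes were higher and 1.6% lower. In the heterologous array 2 members, Ccnd2 and Cdkn2b, were higher and none lower, against 3.98% and 1.95% of all genes. In the co-injection mean 1 member, Cdkn1b, was higher and none lower, against 0.647% and 1.44%. Apart from the co-injection mean, where the share rests on 1 gene, these shares are near or below the background. At 1.5-fold, 1 member was higher (Cdkn1b) and 1 lower (Ccnd3) in the homologous array, against 4.93% and 4.58% of all genes. The heterologous array had 4 higher (Ccnd1, Ccnd2, Cdk6 and Cdkn2b) and 3 lower (Birc5, Ccnd3 and Pttg1), against 7.88% and 5.3%. The co-injection mean had 2 higher (Cdk6 and Cdkn1b) and 2 lower (Ccnd2 and Ccnd3), against 2.77% and 4.13%. The comparisons with parental ESCs share that 1 array.

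The D-type cyclins, which drive G1, diverged from each other. Ccnd2, encoding cyclin D2, was at 9.75 in parental ESCs, 10.10 in the homologous, 11.92 in the heterologous and 9.06 and 9.16 in the co-injection arrays. The heterologous array was thus 4.49-fold above parental ESCs, while the co-injection arrays were lowest, with a difference from parental ESCs of −0.64 ± 0.07 (SD, n = 2). Ccnd1, encoding cyclin D1, was at 11.71 in parental ESCs, 11.48 in the homologous, 12.45 in the heterologous and 11.44 and 11.42 in the co-injection arrays. Cyclin D1 was also highest in the heterologous array, with a difference of 0.74 from parental ESCs, and lay slightly below them in the rest. Ccnd3, encoding cyclin D3, was at 12.08 in parental ESCs against 11.26 in the homologous, 11.25 in the heterologous and 11.22 and 11.26 in the co-injection arrays. Parental ESCs were apart from all 4 ESC-like arrays, which lay between 11.22 and 11.26. The ratios to parental ESCs were 0.570 (homologous), 0.563 (heterologous) and 0.561 (co-injection mean). No median of the chromosomes of these genes (7, 6 and 17) was further than 0.08 from 0 in any comparison with parental ESCs.

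The kinases that pair with D-type cyclins had unequal ranges. Cdk6 was at 9.86 in parental ESCs, 10.39 in the homologous, 10.85 in the heterologous and 10.57 and 10.50 in the co-injection arrays. All 4 ESC-like arrays lay above parental ESCs, by 0.52, by 0.98 and, for co-injection, by 0.67 ± 0.05 (SD, n = 2). Cdk4 was at 12.74 in parental ESCs, 12.76 in the homologous, 12.78 in the heterologous and 12.76 and 12.72 in the co-injection arrays, a range of 0.06.

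CDK inhibitors passed 2-fold in different arrays. Cdkn1b, encoding p27 of the CIP/KIP family, was at 9.59 in parental ESCs, 10.78 in the homologous, 9.90 in the heterologous and 10.64 and 10.70 in the co-injection arrays. The homologous array was 2.28-fold and the co-injection mean 2.12-fold above parental ESCs, whereas the heterologous array differed from them by 0.32. Cdkn2b, encoding p15 of the INK4 family, was at 8.05 in parental ESCs, 8.18 in the homologous, 9.31 in the heterologous and 7.89 and 7.90 in the co-injection arrays. The heterologous array stood apart, 2.39-fold above parental ESCs, while the other arrays lay between 7.89 and 8.18. Its neighbour on chromosome 4, Cdkn2a, which encodes p16 and p19ARF, was listed at 7.90 in parental ESCs, in the homologous and in both co-injection arrays, and at 7.95 in the heterologous array. The values of these 4 arrays were identical in the table, as happened in at least 4 of the 5 arrays for 2.02% of all genes, so the SD of 0 for this gene is no measure of its spread.

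**Figure D1:**
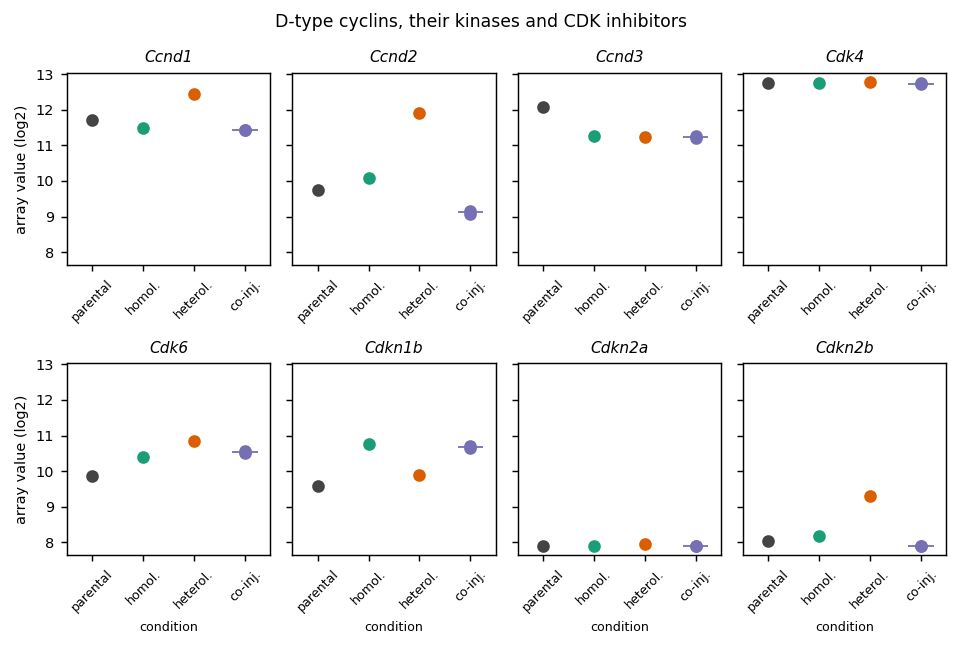
Array values (log2, vertical axis) of the D-type cyclins, their kinases and the measured CDK inhibitors by condition (horizontal axis). Each point is 1 array, the line is the mean of the 2 co-injection arrays, and values are to be compared within a gene only: Ccnd2 and Cdkn2b peak in the heterologous array, at 11.92 and 9.31, and Cdkn1b in the homologous and co-injection arrays.

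Compared directly, the heterologous array had 2 members more than 2-fold above the homologous array, Ccnd2 (1.82) and Cdkn2b (1.13), and none below, against 2.41% and 0.647% of all genes. Ccnd1 was just inside the limit at 0.97. The co-injection mean had 3 members more than 2-fold below the heterologous array, Ccnd2 (−2.80), Cdkn2b (−1.41) and Ccnd1 (−1.02), and none above, against 2.99% and 0.361%. Between the co-injection mean and the homologous array no member passed 2-fold, against 0.0752% of all genes higher and 0.351% lower, and the largest difference was that of Ccnd2 at −0.98 ± 0.07 (SD, n = 2). At 1.5-fold, the heterologous array had 3 members above the homologous array (Ccnd1, Ccnd2 and Cdkn2b) and 1 below (Cdkn1b), against 5.59% and 3.07% of all genes. The co-injection mean had 3 above the heterologous array (Cdkn1b, Cenpf and Pttg1) and 3 below (Ccnd1, Ccnd2 and Cdkn2b), against 2.0% and 6.02%. Against the homologous array it had 0 above and 1 below (Ccnd2), against 0.306% and 1.16%.

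Mitotic genes were similar in parental, homologous and co-injection cells and slightly lower in heterologous cells. Over the 52 members the heterologous array was the lowest of the 5 arrays for 37, or 71.2%, against 36.8% of all genes. Of the 28 mitotic members (checkpoint, kinases, kinetochore, spindle and cohesin genes) it was lowest for 24, with a median of −0.25 from parental ESCs. Among genes with a mean above 10, a limit set after the values were seen, it was lowest for 33 of 41 members and for 35.0% of 3602 genes. The median difference of the members from parental ESCs was −0.18 for heterologous cells, −0.0079 for homologous cells and −0.0046 for the co-injection mean. The medians over all genes were −0.04, −0.01 and 0.04. Taken singly, the 2 co-injection arrays had medians of −0.0043 and 0.0094 over the members (SD 0.0097, n = 2). Against the homologous array the heterologous array had a median of −0.19 over the members and −0.0091 over all genes, without parental ESCs in the comparison. The heterologous array was also the one with the highest fibroblast markers, given above.

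**Figure D2:**
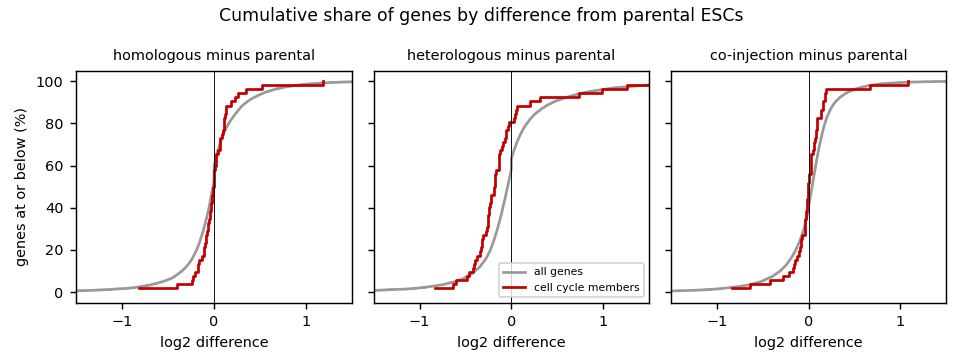
Share of genes (vertical axis, percent) at or below each log2 difference from parental ESCs (horizontal axis, shown from −1.5 to 1.5) for the 52 members (red) and all 19938 genes (grey), with co-injection as the mean of its 2 arrays. The red curve lies left of the grey one over most of its length in the heterologous panel. There 42 of the 52 members and 11562 of all 19938 genes are below 0.

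Among the 6 genes of the spindle assembly checkpoint, which holds back anaphase until kinetochores are attached, the heterologous array was lowest for 4. Bub1b, encoding the checkpoint kinase BUBR1, was at 10.73 in parental ESCs, 10.83 in the homologous, 10.32 in the heterologous and 10.72 and 10.83 in the co-injection arrays. Cdc20, the target of the checkpoint, was at 11.69, 11.66, 11.42, 11.80 and 11.70 in the same order of arrays. In both genes the heterologous array lay below the 4 others, which overlapped. Mad2l1, whose protein binds CDC20, was at 11.95, 11.93, 11.98, 11.93 and 11.89, and Ttk, encoding the kinase MPS1, at 9.93, 9.98, 9.90, 9.91 and 9.89. These last genes spanned 0.09 each over all arrays. Bub1 and Bub3 differed from parental ESCs in the heterologous array by −0.18 and −0.14.

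The 5 genes of mitotic kinases and the chromosomal passenger complex were all lowest in the heterologous array, with a median of −0.26 from parental ESCs. Birc5, encoding survivin of the passenger complex, was at 9.97 in parental ESCs, 9.57 in the homologous, 9.37 in the heterologous and 9.57 and 9.52 in the co-injection arrays. Here parental ESCs were above every ESC-like array. Incenp, the scaffold of the same complex, was at 10.22, 10.13, 9.81, 10.20 and 10.20 in that order, so the heterologous array alone stood off. Plk1, a kinase of mitotic entry and spindle function, was at 12.39, 12.42, 12.15, 12.43 and 12.42. Aurka, the kinase of spindle poles, was at 11.26, 11.09, 11.00, 11.13 and 11.15, with parental ESCs highest. Aurkb, the kinase of the passenger complex, differed by −0.24 in the heterologous array and by −0.01 in the homologous array.

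Kinetochore genes were less uniform. Cenpf, a large kinetochore protein of late cycle phases, was at 9.86 in parental ESCs, 9.96 in the homologous, 9.40 in the heterologous and 9.95 and 10.09 in the co-injection arrays. Cenpa, the centromeric histone H3 variant, was at 11.22, 11.32, 10.89, 11.23 and 11.26 in that order. Both were lowest in the heterologous array, as were 5 of the 7 genes of this group. Spc25, a subunit of the NDC80 complex, was at 9.14, 9.33, 9.34, 9.26 and 9.32, with parental ESCs lowest. Cenpe, a kinetochore motor, was at 10.21, 10.34, 10.11, 10.23 and 10.31. Of the other NDC80 subunits, Ndc80 differed by −0.22, Spc24 by −0.31 and Nuf2 by 0.06 in the heterologous array.

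All 6 genes of spindle motors and the midzone were lowest in the heterologous array, with a median of −0.20 from parental ESCs. Kif11, the motor that pushes spindle poles apart, was at 11.57 in parental ESCs, 11.79 in the homologous, 11.39 in the heterologous and 11.62 and 11.77 in the co-injection arrays. Kif23, a motor of the central spindle, was at 11.09, 11.00, 10.77, 11.04 and 11.11 in that order. The gap of the heterologous array to the next lowest was 0.17 or more in both genes. Kif20a, a motor needed for cytokinesis, was at 11.57, 11.54, 11.50, 11.67 and 11.65, and Prc1, which bundles midzone microtubules, at 10.17, 10.19, 9.99, 10.19 and 10.21. Kif2c and Tpx2, a microtubule depolymerase and a spindle assembly factor, differed by −0.26 and −0.22 in the heterologous array.

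The group of cohesin and separase had the lowest median in the heterologous array, −0.41 over 4 genes, against −0.06 for homologous cells and −0.02 ± 0.02 for co-injection cells (n = 2, SD between array medians). Pttg1, encoding securin, the inhibitor of separase, was at 10.30 in parental ESCs, 10.19 in the homologous, 9.66 in the heterologous and 10.25 and 10.29 in the co-injection arrays. Espl1, encoding separase, was at 10.60, 10.54, 10.12, 10.59 and 10.57 in that order. The securin and separase genes thus were both lowest in the heterologous array, at ratios of 0.642 and 0.717 to parental ESCs. The cohesin subunit gene Smc3 was at 11.05, 11.07, 10.70, 11.00 and 11.06, and Rad21, the subunit that separase cuts, at 12.06, 12.00, 11.74, 12.02 and 12.05. In each of these 4 genes the heterologous array stood below the others, which lay within 0.11 of each other.

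Replication genes spanned at most 0.38 over the arrays. Mcm3 had the largest range among the 10 genes of replication and licensing, at 11.28 in parental ESCs, 11.27 in the homologous, 11.11 in the heterologous and 11.44 and 11.48 in the co-injection arrays. Mcm6 was at 11.00, 11.00, 10.75, 11.08 and 11.09 in that order. The other helicase genes, Mcm2, Mcm4, Mcm5 and Mcm7, differed from parental ESCs by −0.25 to −0.10 in the heterologous array. Pcna, the sliding clamp, was at 12.41, 12.40, 12.39, 12.41 and 12.44, and Rrm2, a subunit of ribonucleotide reductase, at 12.13, 11.96, 12.01, 11.96 and 11.96. The group's median was −0.13 for heterologous cells, −0.05 for homologous cells and 0.02 ± 0.0036 for co-injection cells (n = 2, SD between array medians). Cdc6 and Cdt1, which load the helicase, differed by −0.13 each in the heterologous array, and Cdc6 was the member with the widest gap between the co-injection arrays, at 8.81 and 9.00. Mcm5 and Cdt1 lie on chromosome 8, where 653 genes had a mean above the median of the table. The median difference of these 653 genes from parental ESCs was 0.26 for homologous, 0.04 for heterologous and 0.23 for co-injection cells. The part of this shift in the differences of Mcm5 and Cdt1 was not tested.

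The S and M phase cyclin and kinase genes had a median of −0.22 in the heterologous array. Cdk2, the partner of cyclins E and A, was at 10.52 in parental ESCs, 10.46 in the homologous, 10.13 in the heterologous and 10.32 and 10.31 in the co-injection arrays. Cdk1, the mitotic kinase, was at 11.94, 11.76, 11.56, 11.78 and 11.76 in that order. In Cdk1 parental ESCs were highest and the heterologous array lowest. Ccna2, encoding cyclin A2, was at 12.42, 12.48, 12.37, 12.45 and 12.44, and Ccne1, encoding cyclin E1, at 12.33, 12.22, 12.27, 12.24 and 12.24. Both cyclins spanned 0.12 or less. The proliferation marker Mki67 was at 11.35, 11.61, 11.17, 11.39 and 11.49, and Top2a, encoding topoisomerase II alpha, at 11.60, 11.66, 11.34, 11.54 and 11.58. Both were highest in the homologous array and lowest in the heterologous array.

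Of 138 other cell cycle genes on lists of the same machinery, 135 had a probe set of their own. In the homologous array 1 of them was more than 2-fold higher and 3 lower, in the heterologous array 1 higher and 3 lower, and in the co-injection mean 0 higher and 3 lower, which as shares are below or near those of all genes given above. Their median was −0.15 for heterologous, 0.00 for homologous and −0.03 for co-injection cells. The 3 lower genes were the same in each comparison with parental ESCs, all of which use that 1 array, and 2 of them encode cohesin subunits of meiosis. Smc1b was at 8.88 in parental ESCs, 6.80 in the homologous, 6.34 in the heterologous and 6.62 in both co-injection arrays. Stag3 was at 10.25, 9.15, 8.07, 8.74 and 8.84 in that order. Their ratios to parental ESCs in the heterologous array were 0.171 and 0.220. Rec8, a further meiotic cohesin subunit on the list, was above parental ESCs, by 0.64 in the homologous array, 0.25 in the heterologous array and 0.49 in the co-injection mean. Of the mitotic counterparts, the X-linked genes Smc1a and Stag2 differed by −0.69 and 0.32 in the heterologous array and Stag1 by 0.10. Rec8 and these 3 genes were chosen for naming after their values were seen. The remaining lower gene, Cenpi, encodes a centromere protein and is X-linked as well. It was at 9.44 in parental ESCs, 8.40 in the homologous, 8.35 in the heterologous and 8.36 and 8.40 in the co-injection arrays. The 359 X-linked genes with a mean above the median of the table had a median difference of −0.44 for homologous, −0.47 for heterologous and −0.50 for co-injection cells, and the part of this shift in the difference of Cenpi was not tested.

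The genes more than 2-fold higher were Ncapg2 in the heterologous array and Ccng2 in the homologous array. Ncapg2, a subunit of condensin II, was at 9.12 in parental ESCs, 9.10 in the homologous, 10.15 in the heterologous and 9.12 and 9.20 in the co-injection arrays. Chromosome 12 alone was split into parts, picked as the autosome whose median difference in the heterologous array, 0.24, was furthest from 0. Counting genes with a mean above the median of the table, Ncapg2 lies in the last of 5 equal parts of it. There 84 genes had a median difference of 0.87 in the heterologous array, and that of Ncapg2 was 1.03. The part of this shift in the difference of Ncapg2 was not tested. The only member on chromosome 12, Rrm2, lies in the first part, where the median was −0.0019. Ccng2, encoding the atypical cyclin G2, was at 7.02, 8.57, 7.92, 7.75 and 7.44 in the order above. The homologous array was 2.92-fold above parental ESCs, and the co-injection arrays were apart by more than those of any member. Of 7 housekeeping genes with a probe set of their own, B2m alone passed 2-fold against parental ESCs, at 1.31 in the homologous and 2.15 in the heterologous array, and the list's medians were 0.02, 0.04 and 0.0005.

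**Figure D3:**
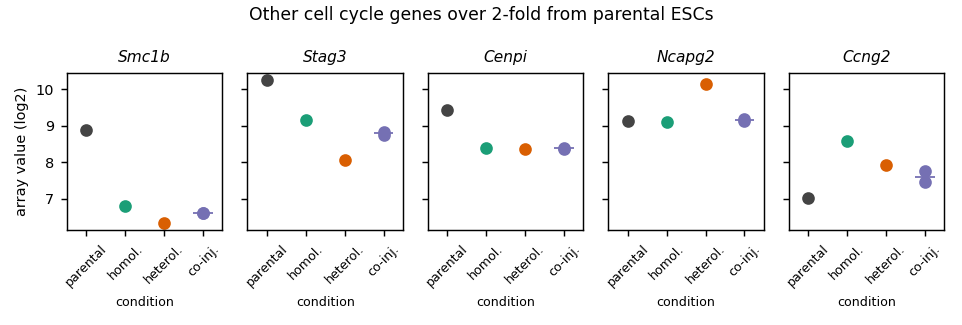
Array values (log2, vertical axis) of the 5 other cell cycle genes more than 2-fold from parental ESCs in any comparison, by condition (horizontal axis). Each point is 1 array and the line is the mean of the 2 co-injection arrays: Smc1b, Stag3 and Cenpi are highest in parental ESCs, and Ncapg2 is highest in the heterologous array at 10.15.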

How the data were processed

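Affymetrix GeneChip Mouse Gene 1.0 ST arrays of 5 populations were used. The deposited log2 values of 35556 probe sets were made by the authors with GCOS for extraction and RMA with quantile normalization, in versions not given in the sources used here. RMA fits each probe set across arrays and can return identical values for several of them. No further normalization was applied. Of the probe sets, 21789 have 1 gene symbol in the platform annotation, 1621 have several and 12146 have none, and only the first were named. Chromosomes, gene order and promoters came from RefSeq for GRCm38.p6.

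Conditions were compared as differences of log2 values (co-injection as the mean of its 2 arrays), with the 2-fold rule of the methods and no test. Members, lists and the rule for naming were chosen with earlier results of these data known. Values in every array are given for members past 2-fold and for those with the 2 largest and the 2 smallest ranges of each role group. The other lists held cyclins and kinases, CDK inhibitors, RB and E2F, DREAM, origin and polymerase, kinetochore, cohesin and condensin, anaphase-promoting complex and checkpoint kinase genes, of which those past 2-fold against parental ESCs are named by rule, and markers of ESCs, fibroblasts, contractile cells, macrophages and endothelium. Some listed genes, Trp53, Cdkn1a and Gapdh among them, were not analysed here.

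Alternatives were thresholds of 1.5-fold and 3-fold, leaving out dim genes, cyclic loess, the mean over probe sets, limma across all probe sets (eBayes, Benjamini-Hochberg, 1 residual degree of freedom) and leaving out each co-injection array. Both rules of calling were tested on simulated data. Python 3.11.15, pandas 2.3.3, numpy 2.4.6, matplotlib 3.10.9, R 4.3.3 and limma 3.58.1 were used.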

Additional observations from a re-analysis of the deposited data

Results flagged for a closer look

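Ccnd1 and Ccnd2 lay on opposite sides of parental ESCs in different conditions, by more than the widest gap between the co-injection arrays over the members (0.19) on each side. Ccnd1 differed from parental ESCs by −0.23 in the homologous array and by 0.74 in the heterologous array, and the latter stood against −0.28 in the co-injection mean. Ccnd2 differed by 2.17 in the heterologous and by 0.35 in the homologous array, each against −0.64 in the co-injection mean, where both arrays were below parental ESCs. These differences between conditions were not tested.

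A second, dimmer probe set of Cdkn1b, which the comparisons above did not use, was also above parental ESCs, by 1.5 in the homologous array and by 1.41 in the co-injection mean. In the heterologous array its difference was 0.43.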

How the results depend on the processing

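The number of members past the threshold depended on it. At 1.5-fold it was 2 (homologous), 7 (heterologous) and 4 (co-injection) against parental ESCs, in place of 1, 2 and 1, then 4 for heterologous against homologous, 6 for co-injection against heterologous and 1 for co-injection against homologous cells. At 3-fold it was 0, 1 and 0 against parental ESCs and 1 in each of the next 2 comparisons, where Ccnd2 was the member left. The shares of all genes past 3-fold in either direction were 0.792%, 2.23%, 0.542%, 0.908%, 1.37% and 0.115% in the same order of comparisons. By limma it was 0 in all 6 comparisons, but that fit rests on 1 residual degree of freedom and passed no probe set at all. Without co-injection batch 2, 1 member (Ccnd2) passed 2-fold against the homologous array, so the counts ranged from 0 to 1 there. Cyclic loess, the mean over probe sets and leaving out dim genes, among which no member was, kept all counts over 2-fold within 1.5 times. Cyclic loess raised the count for heterologous against parental ESCs from 2 to 3, all higher.

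The median over members moved with cyclic loess from −0.18 to −0.16 for heterologous against parental, from −0.19 to −0.15 for heterologous against homologous and from 0.19 to 0.14 for co-injection against heterologous cells. The mean over probe sets gave −0.17 for heterologous against homologous cells. Without each co-injection array in turn, the co-injection median against parental ESCs ranged from −0.0043 to 0.0094. Under cyclic loess the heterologous array was lowest for 36 members against 25.7% of all genes, chosen as a setting after the values were seen. Why these values moved was not tested. No paired analysis was possible because each condition outside the co-injection pair had 1 array. Background correction and slide were not varied, since scanner files were not used here.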

Other observations

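Equal values across arrays were common in the table. For 30.2% of all genes at least 2 of the 5 arrays had exactly the same value, and for 5.9% the 2 co-injection arrays did. Among the 52 members this was so for 6 and 2 genes, the latter Cdkn2a and Rrm2. The spread of the co-injection pair is then 0 for a gene without any sign of better precision.

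Markers of the remaining cell types differed in how they stood in the heterologous array. All 4 contractile genes (Acta2, Tagln, Cnn1 and Myl9) were more than 2-fold above parental ESCs in the heterologous array, with a median of 2.08, while 1 of 6 macrophage genes, Lyz2 at 1.16, was, and no endothelial gene. Pecam1, an endothelial marker that ESCs also express, was at −1.44 there.

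Of 6 genes of the DREAM complex and mitotic transcription, Mybl2, encoding B-Myb, differed from parental ESCs by −0.54 (homologous), −0.80 (heterologous) and −0.46 (co-injection mean). Foxm1, an activator of mitotic genes, differed by 0.36, −0.10 and 0.39 in that order. Lin9 differed by −0.19, −0.59 and −0.03, Lin37 by −0.60, −0.44 and −0.45, Lin52 by −0.12, 0.18 and −0.13, and Lin54 by −0.02, −0.36 and −0.22. The medians of the 6 were −0.15, −0.40 and −0.18. The heterologous array was lowest for Mybl2, Foxm1, Lin9 and Lin54, highest for Lin52, and for Lin37 the homologous array was lowest. Lin52 lies in part 3 of 5 of chromosome 12, where 84 genes had a median difference of 0.14 in the heterologous array. The part of this shift in the difference of Lin52 was not tested. This list was picked for description after its values were seen.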
